A study of Homo sapiens with 2 samples.

Results

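The 10 genes described here encode core proteins of small nucleolar ribonucleoproteins (snoRNPs) and abundant proteins of the nucleolus: FBL, NOP56, NOP58, SNU13, NHP2, NOP10, GAR1, NOLC1, NCL and NPM1. They were chosen by name, and all transcripts of these genes in the deposited tables were taken, 96 of the 206696 transcripts listed. Their counts were summed per gene, among 59026 genes that could be matched to the GENCODE v44 annotation (GRCh38). The libraries were made from rRNA-depleted total RNA of HEK293 Flp-In T-Rex cells, an established human embryonic kidney cell line with a single integration site for tetracycline-controlled transgenes. No treatment or transgene was named for either library, and there was 1 group with 2 libraries, replicate 1 and replicate 2. Whether these came from separate cultures was not stated, so the spread between them may be technical, and no test between conditions could be made. In bulk RNA, fewer cells of a type and less RNA per cell cannot be told apart.

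snoRNPs are RNA-protein complexes that guide chemical modification of other RNAs, above all rRNA. Box C/D snoRNPs carry fibrillarin (FBL), the enzyme that methylates the ribose 2′-O position, on a scaffold of NOP56, NOP58 and SNU13. Box H/ACA snoRNPs carry dyskerin (DKC1), the pseudouridine synthase, together with NHP2, NOP10 and GAR1. NOLC1 associates with both classes of snoRNP, NCL (nucleolin) is an RNA-binding protein of the nucleolus, and NPM1 (nucleophosmin) is a chaperone of ribosome assembly. Many human snoRNAs lie in introns of genes for such proteins.

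The libraries totalled 25158962 estimated counts for replicate 1 and 27143860 for replicate 2, and the 10 genes took 0.381% and 0.315% of these. The marker genes NEFL, INA, PAX2 and NEFM of HEK293 cells were above 0 in both libraries, with mean levels per length (defined below) of 22.3 for NEFL, 4.2 for INA, 0.694 for PAX2 and 0.281 for NEFM. Of 9 markers of other cell types, 5 were at 0 in both libraries (PTPRC, CD3E, ALB, INS and MYH7). The other 4 were HBB at 20.6, HBA1 at 19.7, COL1A1 at 4.86 and COL3A1 at 0.124 per length, so HBB and HBA1 lay above INA, PAX2 and NEFM. The 9 markers summed to 618.8 normalised counts in replicate 1 against 822.1 in replicate 2. Their part in the values below was not tested.

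All 10 genes were detected in both libraries, and their levels differed widely. To compare genes, the count of each transcript was divided by its length, and the values of a library were scaled to a sum of 1000000. This is called the level per length here. On this scale NPM1 was at 1399 in replicate 1 against 972 in replicate 2, and FBL was at 416 in both. GAR1 was lowest, at 10.8 in replicate 1 against 7.78 in replicate 2. The mean level per length fell in the order NPM1, FBL, NOP56, NCL, NHP2, SNU13, NOLC1, NOP10, NOP58 and GAR1. The median of the 10 mean levels per length was 167.3, whereas 15537 protein-coding genes with 1 or more normalised counts in each library had a median of 7.69. NPM1 ranked 64 and GAR1 ranked 7476 among the 26370 genes that reached this count.

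**Figure D1:**
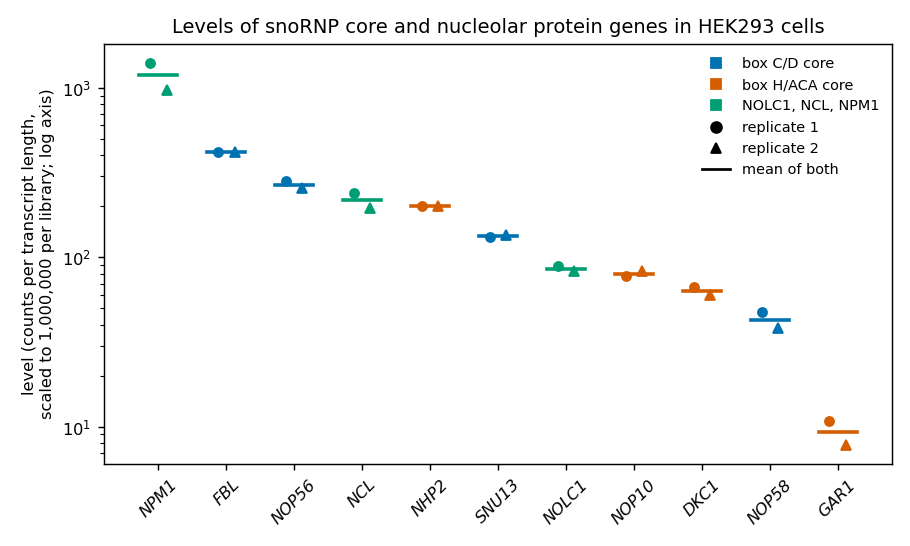
Level per length (counts divided by transcript length, scaled to 1000000 per library, log axis) of the 10 genes and DKC1. Circles show replicate 1, triangles replicate 2 and bars their mean, from 1185 for NPM1 to 9.28 for GAR1, with NCL and NHP2 side by side at 217 and 201.

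An order of 2 genes was called when it was the same in replicate 1 and replicate 2 and the mean levels per length lay further apart than their SDs added together. Of the 45 pairs of the 10 genes, 43 were called. The corresponding share over all pairs of the 7417 genes within the range of levels of these genes was 79.9%, and as the 10 genes were not spaced like the others in that range, nothing is read from the difference. One of the pairs without a call was NCL and NHP2, which lie next to each other. NCL was 1.19-fold higher per length than NHP2 in replicate 1, but 0.965-fold in replicate 2. The other was NOLC1 and NOP10, where the ratio of levels per length was 1.14 and 1.01, within the spread.

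Within the box C/D core, fibrillarin transcripts were most abundant and NOP58 transcripts least abundant. FBL (ENSG00000105202; chromosome 19, 39834458 to 39846379, minus strand, GRCh38) had a level per length of 416.1 in replicate 1 against 415.6 in replicate 2, with a mean of 416 ± 0.350 (SD, n = 2 here and in the paragraphs that follow). NOP56 (ENSG00000101361; chromosome 20, 2652593 to 2658393, plus strand) was at 280.8 and 255.9 per length, or 268 ± 17.6. SNU13 (ENSG00000100138; chromosome 22, 41673933 to 41690504, minus strand), the protein that first binds the snoRNA, was at 131.0 and 135.5 per length, or 133 ± 3.18. These 3 genes kept their order in both libraries. NOP58 (ENSG00000055044; chromosome 2, 202265736 to 202303661, plus strand) was at 47.5 and 38.3 per length, or 42.9 ± 6.51. All pairs within this core were called. The largest ratio was that of FBL to NOP58, 8.76 in replicate 1 against 10.9 in replicate 2. Without division by length, the log2 ratio of FBL to NOP58 was 2.43 in place of 3.28, and that of NOP56 to NOP58 was 1.96 in place of 2.65. Between the paralogous scaffold proteins, the level per length of NOP56 was 5.91-fold that of NOP58 in replicate 1 and 6.68-fold in replicate 2. That ratio also depended on which transcripts were counted. When protein-coding transcripts alone were counted, the log2 ratio of mean levels per length of NOP56 to NOP58 was 0.13 and no longer called, in place of 2.65 with all transcripts. The log2 ratio of NOP56 to SNU13 turned from 1.01 to -1.96.

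Within the box H/ACA core, NHP2 was highest per length and GAR1 lowest, and dyskerin lay between them. NHP2 (ENSG00000145912; chromosome 5, 178149463 to 178153894, minus strand), an RNA-binding subunit, had a level per length of 201.1 in replicate 1 and 201.7 in replicate 2, or 201 ± 0.442. NOP10 (ENSG00000182117; chromosome 15, 34339159 to 34343180, minus strand), a small protein that contacts dyskerin, was at 77.6 and 82.5 per length, or 80.1 ± 3.50. DKC1 (ENSG00000130826; chromosome X, 154762742 to 154777689, plus strand), given beside the 10 genes to complete the core, was at 67.1 and 60.2 per length, or 63.6 ± 4.92. The values of NOP10 and DKC1 did not overlap. GAR1 (ENSG00000109534; chromosome 4, 109815510 to 109824740, plus strand) was at 10.8 and 7.78 per length, or 9.28 ± 2.13. NHP2 was 18.6-fold higher per length than GAR1 in replicate 1 and 25.9-fold in replicate 2. All pairs within this core were called on this scale. The order of NOP10, NHP2 and DKC1 depended on the division by length. Without it, the log2 ratio of NOP10 to DKC1 turned from 0.33 to -1.80, and that of NHP2 to DKC1 fell from 1.66 to 0.11 and was not called. DKC1 stayed above GAR1, with a log2 ratio of 3.91 in place of 2.78.

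Among the other nucleolar proteins, NPM1 (ENSG00000181163; chromosome 5, 171387116 to 171411810, plus strand) was highest at 1185 ± 302 per length. NCL (ENSG00000115053; chromosome 2, 231453531 to 231483641, minus strand) was at 239.6 in replicate 1 and 194.6 in replicate 2, or 217 ± 31.8 per length. NOLC1 (ENSG00000166197; chromosome 10, 102152176 to 102163871, plus strand) was at 88.3 and 83.2 per length, or 85.7 ± 3.55. In normalised counts not divided by length, NPM1 held 49858 in replicate 1 against 33113 in replicate 2. NPM1 also had the largest SD of the 10 genes on both scales.

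Genes for factors that build snoRNPs had a lower median level than the 10 genes above. All 10 genes of a list of snoRNP assembly factors were detected in both libraries, and their median level per length was 13.3 beside 167.3. The AAA+ ATPases RUVBL2 at 118 ± 8.09 and RUVBL1 at 79.9 ± 6.89 were the highest of the list. ZNHIT6 at 3.44 ± 0.608 and NUFIP1 at 6.19 ± 1.5, both box C/D assembly factors, were the lowest (SD, n = 2 each). A list of 22 other nucleolar genes for ribosome biogenesis was also detected throughout, with a median level per length of 41.7. GNL3 (nucleostemin) at 109 ± 21.6 and the RNA helicase DDX21 at 85.6 ± 15.7 were highest. MPHOSPH10 at 7.02 ± 1.24 and RRP9 at 9.05 ± 0.132, both components of the small subunit processome, were lowest (SD, n = 2 each). The difference between these lists was not tested.

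None of the 10 genes differed by more than 2-fold between the libraries in normalised counts, compared with 5.76% of all genes averaging 10 or more normalised counts. The genes were not matched by count in this comparison. The largest difference was that of NPM1, with a log2 ratio of replicate 2 to replicate 1 of -0.59, followed by GAR1 with -0.53, NOP58 with -0.43 and NCL with -0.31. FBL, NOP56, SNU13, NHP2 and NOP10 differed by less than 0.1 on the log2 scale. The direction depended on the scaling: 9 of the 10 genes were lower in replicate 2 in normalised counts, where 55.2% of all genes at this minimum were lower, but 6 were lower per 1000000 estimated counts, 5 when misc_RNA, ribozyme and snRNA genes were left out of the total, and 7 per length. On each of these scales NPM1 had the lowest log2 ratio and NOP10 the highest. None of the 10 assembly factors and none of the 22 ribosome biogenesis genes was over 2-fold apart.

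The genes differed more in which of their transcripts held the counts. Where a read matches several transcripts, RSEM splits it among them, so a share rests on the sequence in which a transcript differs from the others of its gene. Shares are given below in normalised counts, in which a share within 1 library equals that in estimated counts. The same transcript led in both libraries in 9 of the 10 genes, and the leader differed in 1, NOP56. Among 16735 genes with several transcripts and 1 or more normalised counts in each library, the leader differed in 21.5%. The lowest total among the 10 genes was 210.5, for GAR1 in replicate 2, so these shares were not taken at like counts. Nothing is read from their difference. Divided by length, the leader differed in 2 of the 10 genes, SNU13 and NCL, while NOP56-205 then led NOP56 in both libraries. Of the 73 transcripts of the 10 genes averaging 10 or more normalised counts, 13 were over 2-fold apart between the libraries, or 17.8%, and 7 of these 13 were at 0 in 1 library. Over all transcripts at this minimum, 30.6% were over 2-fold apart, but these were not matched by count to those of the 10 genes.

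**Figure D2:**
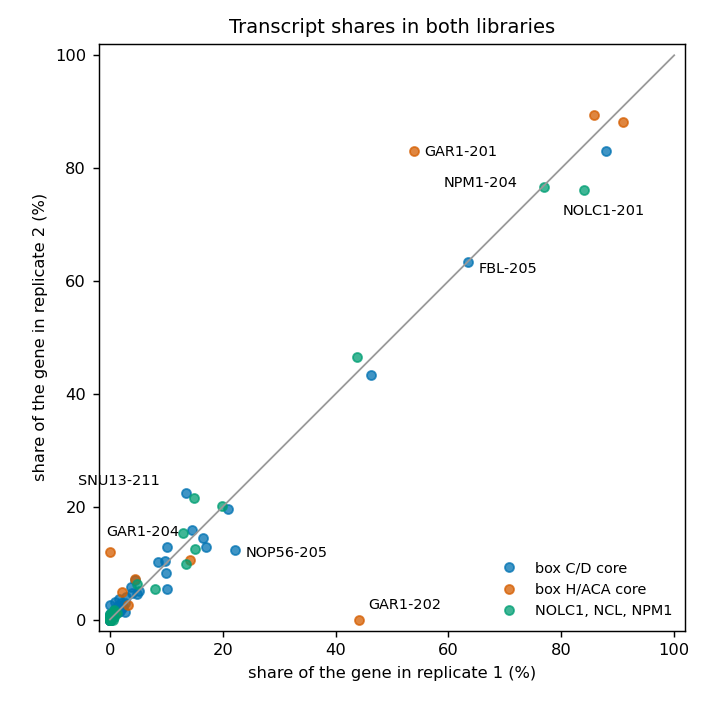
Share of each transcript in the normalised counts of its gene (%), replicate 1 on the x axis and replicate 2 on the y axis, for the 96 listed transcripts of the 10 genes; the line marks equal shares. Most points lie near the line, and GAR1-202, with 44.1% in replicate 1 against 0 in replicate 2, lies farthest from it.

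Protein-coding transcripts, as annotated, took 86.4% of the normalised counts of the 10 genes in replicate 1 against 85.5% in replicate 2 (mean 86.0% ± 0.681, SD, n = 2). Over all protein-coding genes this share was 84.8% ± 0.146. The sum over the 10 genes leaned on NPM1, since without it the share was 76.4% ± 1.55 (SD, n = 2; computed after the values were seen). NOP10, NOLC1, NHP2 and NPM1 had over 95% in protein-coding transcripts in both libraries. NOP56 stood at the other end with 13.3% in replicate 1 against 17.8% in replicate 2, and 4.36% of 15537 protein-coding genes had a lower mean share than NOP56. The median protein-coding gene had 92.9%, and 6 of the 10 genes lay below it. These were NOP56, FBL at 78.8% ± 0.952, NCL at 80.4% ± 3.85, SNU13 at 85.1% ± 2.98, NOP58 at 85.5% ± 3.50 and GAR1 at 90.5% ± 10.5 (SD, n = 2 each).

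**Figure D3:**
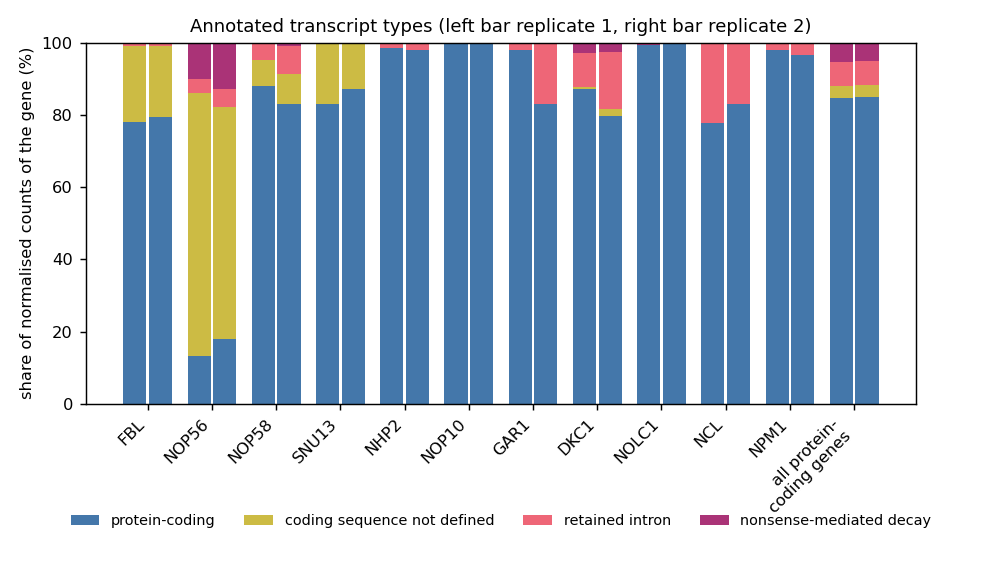
Share of normalised counts (%) in transcripts of each annotated type, stacked, for the 10 genes, DKC1 and all protein-coding genes; the left bar of each pair is replicate 1 and the right bar replicate 2. NOP56 has the smallest protein-coding part (13.3% and 17.8%), NCL the largest retained-intron part (22.3% and 16.9%), and transcripts without a defined coding sequence take 21.0% and 19.5% of FBL.

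A stricter question is which transcripts code for the full reference protein, taken here as that of the MANE Select transcript, the representative model on which GENCODE and RefSeq agree. Transcripts with exactly this protein held 54.9% of the counts of the 10 genes in replicate 1 against 51.4% in replicate 2 (mean 53.1% ± 2.49, SD, n = 2). Without NPM1 the share was 32.5% ± 0.0844. The share was highest in GAR1, NHP2, NOP10, NOP58 and NPM1, where it was over 75% in both libraries. It was 49.9% ± 2.13 in SNU13, 45.1% ± 1.85 in NCL, 15.2% ± 0.815 in FBL, 1.40% ± 0.618 in NOP56 and 0.526% ± 0.688 in NOLC1 (SD, n = 2 each). Annotated transcripts that differ from the reference protein by a few residues count as different here, as in NOLC1 below.

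Fibrillarin counts were assigned mostly to a model that lacks the start of the gene. FBL-205 held 63.5% of the FBL counts in replicate 1 (95% Clopper-Pearson interval 62.5 to 64.5%) and 63.4% in replicate 2 (62.4 to 64.3%), where the intervals cover counting error only. The full-length FBL-201 held 14.6% and 15.8%. FBL-202, with no defined coding sequence, held 21.0% and 19.5%. The order of the 3 transcripts was the same in both libraries, and each share moved by less than 2 percentage points. FBL-205 is annotated as incomplete at its 5′ end. It encodes 229 amino acids, residues 86 to 314 of the 321 of the reference protein, and its last exon runs through the 105 bases of the final intron of FBL-201. Of its 50-base words, 17.6% occur in no other GENCODE v44 transcript of FBL, against 0.280% for FBL-201. Few reads can thus set FBL-201 apart from all other FBL models at once. From FBL-205 alone, 35.1% of the 50-base words of FBL-201 are absent.

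The model lacks exons 1 and 2 of FBL-201 and 74 coding bases of exon 3. Exon 2 is printed because it encodes much of the glycine- and arginine-rich region, which is known to bind RNA and to be methylated on arginine. It lies at chr19:39840617-39840787 (GRCh38, minus strand) and is 171 bases long. Among its 56 whole codons, 37 encode glycine and 11 arginine, and all 11 arginine codons stand directly before a glycine codon. These arginine codons are in capitals.
FBL-201 exon 2: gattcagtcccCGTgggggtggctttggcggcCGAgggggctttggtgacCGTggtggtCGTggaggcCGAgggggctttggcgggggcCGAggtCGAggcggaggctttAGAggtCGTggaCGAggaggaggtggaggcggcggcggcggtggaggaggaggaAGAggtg

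NOP56, which bridges the box C/D particle, had no dominant transcript. NOP56-205 led in replicate 1 with 22.1% of the NOP56 counts (95% exact interval 21.1 to 23.1%), but held 12.4% in replicate 2 (11.6 to 13.1%), where NOP56-207 led with 12.9% (12.1 to 13.7%). NOP56-205 has 3 exons and no defined coding sequence. NOP56-207 is annotated as a target of nonsense-mediated decay and held 10.2% in replicate 1. The next transcripts by mean share were NOP56-216 with 10.1% ± 0.542, NOP56-202 with 9.39% ± 1.20, NOP56-208 with 9.07% ± 1.29, NOP56-218 with 7.79% ± 3.27 and NOP56-213 with 5.73% ± 1.83 (SD, n = 2 each). The full-length NOP56-201, which codes for 594 amino acids in 12 exons, held 0.961% in replicate 1 against 1.83% in replicate 2. Per length it had a mean share of 0.703%, and NOP56-202 one of 5.52%. None of its 50-base words is absent from all other GENCODE v44 transcripts of the gene, and the same holds for NOP56-205, NOP56-207, NOP56-202, NOP56-208, NOP56-213 and NOP56-216.

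NOP56 is also a host gene. Its introns hold 5 snoRNAs, and 7 of its 20 listed transcripts keep at least 1 of them whole within an exon. Exons that hold only part of a snoRNA were not counted. These 7 transcripts held 24.5% of the NOP56 counts in replicate 1 against 28.7% in replicate 2 (mean 26.6% ± 3.01, SD, n = 2). Transcripts with SNORD86 in an exon made up 20.7% and 25.1%. NOP56-216 was the highest of these with 9.67% and 10.4%, followed by NOP56-213 with 4.44% and 7.03%. NOP56-219, annotated as retained intron and spanning SNORD86, SNORD56 and SNORD57 in 1 exon of 2980 bases, held 3.88% and 4.74%. Per length NOP56-219 held 1.22% and 1.55%. The sum over these 7 was higher in replicate 2. NOP56-205 is not among them, although its first exon begins at chr20:2656640, inside SNORD56 (chr20:2656624-2656694), and so holds part of it. Its share was lower in replicate 2, with 12.4% against 22.1% in replicate 1. The direction between the libraries thus depends on whether such a partial overlap is counted.

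**Figure D4:**
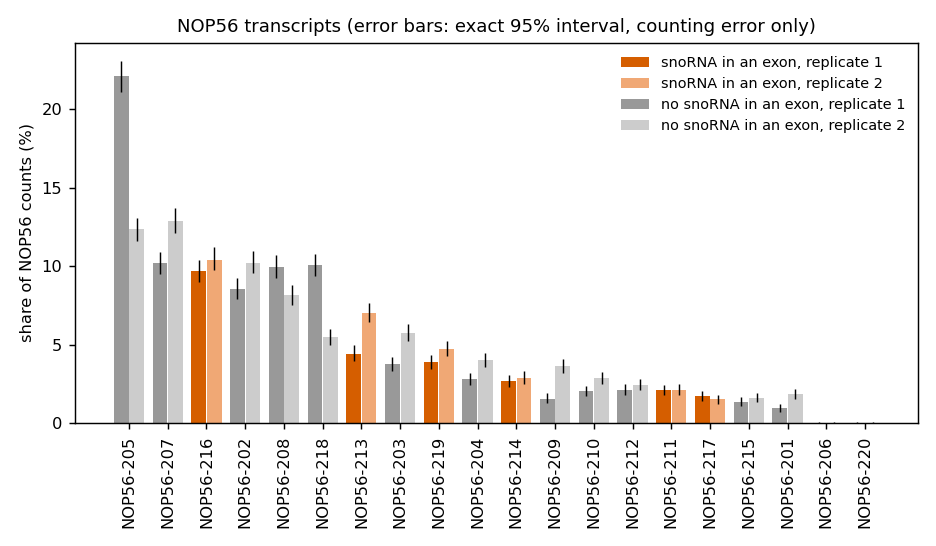
Share of NOP56 counts (%) in each of the 20 listed NOP56 transcripts. Darker bars are replicate 1 and lighter bars replicate 2. Orange bars have a whole snoRNA within an exon, and the grey NOP56-205 holds part of SNORD56. Error bars are exact 95% intervals for counting error only. NOP56-205 has 22.1% in replicate 1 against 12.4% in replicate 2, and 2 transcripts are at 0 in both libraries.

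The box C/D snoRNAs of NOP56 are printed because the snoRNA-bearing exons turn on them. Box C was searched as ATGATGA or GTGATGA in the first 20 bases and box D as CTGA in the last 15 bases, on the strand of the snoRNA only, and the letters found are in capitals. Both motifs were found by these letters in 59.7% of 313 annotated SNORD genes, box C in 62.3% and box D in 87.2%. SNORD110 lies in intron 3 at chr20:2654212-2654286, SNORD86 in intron 8 at chr20:2656097-2656182, SNORD56 in intron 9 at chr20:2656624-2656694 and SNORD57 in intron 10 at chr20:2656939-2657010 (GRCh38, plus strand).
SNORD110: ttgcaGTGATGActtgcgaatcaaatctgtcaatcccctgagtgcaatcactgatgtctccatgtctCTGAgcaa
SNORD86: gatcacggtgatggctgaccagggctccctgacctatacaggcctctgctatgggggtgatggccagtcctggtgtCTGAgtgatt
SNORD56: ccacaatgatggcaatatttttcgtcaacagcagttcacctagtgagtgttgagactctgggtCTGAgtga
SNORD57: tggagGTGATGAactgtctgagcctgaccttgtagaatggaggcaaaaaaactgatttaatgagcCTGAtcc

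The snoRNAs themselves had few counts in these libraries. Introns of NOP56, NOP58 and NCL hold 12 annotated snoRNA genes, 10 of box C/D and 2 of box H/ACA, and all 12 were listed. They are 70 to 137 bases long, and how well these libraries captured RNAs of such lengths was not tested. The 12 summed to 37.5 normalised counts in replicate 1 against 29.7 in replicate 2. SNORA51 in NOP56 was highest with 16.3 and 14.8, and SNORD110 followed with 12.8 and 7.52. SNORD86, SNORD56, SNORD57, SNORD11B and SNORD20 were at 0 in both libraries, below the 3 counts taken as the floor. The counts of NOP56 transcripts with SNORD86 in an exon stood beside no count for SNORD86 as a gene of its own. No listed transcript of NOP58 or NCL had a whole snoRNA within an exon. GENCODE v44 does hold such models of NCL, NCL-211 with SNORD20 and NCL-216 with SNORA75, but they were not listed.

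NOP58 was held mainly by 1 transcript, and SNU13 was not. NOP58-201, which codes for the reference protein of 529 amino acids, held 88.0% of NOP58 in replicate 1 (95% exact interval 86.4 to 89.4%) and 83.0% in replicate 2 (81.2 to 84.8%). Retained-intron transcripts of NOP58 held 4.68% and 7.76%, or 11.7% and 16.4% per length. SNU13, which binds the kink-turn of box C/D snoRNAs and of U4 snRNA, was divided between several coding transcripts. The MANE Select SNU13-202 led with 46.3% in replicate 1 against 43.3% in replicate 2. SNU13-211, whose annotated protein of 73 amino acids begins at residue 56 of the 128 of the reference, held 13.5% in replicate 1 (95% exact interval 12.4 to 14.7%) and 22.5% in replicate 2 (21.1 to 23.9%). SNU13-203, with 132 amino acids and another first exon, held 16.5% and 14.4%, and SNU13-208, with no defined coding sequence, 17.0% and 12.8%. SNU13-201, which codes for the reference protein too, held 5.10% and 5.13%. Per length SNU13-203 led in replicate 1 with 33.4% and SNU13-211 in replicate 2 with 28.8%, while SNU13-202 held 29.7% and 26.9%. A processed pseudogene (ENSG00000285531) lies within SNU13 on the same strand and held 28.2 normalised counts in replicate 1 against 8.91 in replicate 2.

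The H/ACA proteins NHP2 and NOP10 were each held mainly by 1 transcript. NHP2-201, which codes for the 153-residue reference protein, had 91.0% of NHP2 in replicate 1 against 88.2% in replicate 2. NHP2-202 had 4.42% and 7.21%. It skips exon 3 of NHP2-201, 106 coding bases at chr5:178150888-178150993 (minus strand), and is annotated with 90 amino acids, the first 77 of which are those of the reference. The skipped exon is printed as the coding difference between the pair. The gene overlaps RMND5B on the opposite strand, which held 790.2 and 929.9 normalised counts, and it is not stated whether strand was used in counting.
NHP2-201 exon 3: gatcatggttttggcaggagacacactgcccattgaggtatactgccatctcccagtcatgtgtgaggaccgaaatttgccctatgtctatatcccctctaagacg

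NOP10-201 had 85.8% of NOP10 in replicate 1 (95% exact interval 83.6 to 87.9%) and 89.4% in replicate 2 (87.5 to 91.0%). The remaining counts went to NOP10-202, with 14.2% and 10.6%. NOP10 encodes 64 amino acids. NOP10-202 lacks 58 coding bases of exon 2 at chr15:34342051-34342108 (minus strand), and its annotated protein has 36 amino acids and shares the first 18. NOP10-202 also has 40 non-coding bases in exon 1 and 2 in exon 2 that NOP10-201 lacks.
NOP10-201 exon 2, part absent from NOP10-202: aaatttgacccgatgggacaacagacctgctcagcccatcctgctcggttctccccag

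GAR1 rested on few counts, 287 in replicate 1 against 227 in replicate 2, and its leading transcripts had the largest SDs of shares among the 10 genes. GAR1-201 held 53.8% in replicate 1 (95% exact interval 47.7 to 59.5%) and 83.1% in replicate 2 (77.8 to 87.9%). GAR1-202 held 44.1% in replicate 1 (38.4 to 50.2%) and was at 0 in replicate 2, where 3 counts would be a share of 1.32%. Both code for the same 217 amino acids and differ in a first exon of 43 or 36 bases and 3 bases at the end. Together they made up 97.9% and 83.1% of GAR1. GAR1-204, a retained-intron transcript, was at 0 in replicate 1, where 3 counts would be 1.05%, and held 12% in replicate 2 (7.99 to 16.8%). The share coding for the 217-residue protein was closer between the libraries than the share of either transcript.

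NOLC1 counts fell on 2 transcripts that are not the MANE Select one. NOLC1-201 held 84.0% in replicate 1 (95% exact interval 83.2 to 84.8%) and 76.1% in replicate 2 (75.1 to 77.0%), and NOLC1-207 held 14.9% and 21.5%. The MANE Select NOLC1-209 held 0.0395% and 1.01%. NOLC1-209 encodes 699 amino acids and NOLC1-207 encodes 700, with 3 more coding bases in exon 3. NOLC1-201 is annotated with 707 amino acids and an incomplete start, and has 30 more coding bases in exon 6, at chr10:102159309-102159338 (plus strand). That insertion separates the leading transcript from the others named and is printed for this reason. It is not the largest difference from NOLC1-207, which also lacks 1270 non-coding bases of exon 13 of NOLC1-201, at chr10:102162601-102163870. Which of these parts set the split of counts between NOLC1-201 and NOLC1-207 was not tested.
NOLC1-201 exon 6, added bases: gtctggaccataacttctgtcagggcagag

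Nucleolin was divided between 3 coding transcripts and retained introns. NCL-201, with the reference protein of 710 amino acids, held 43.8% in replicate 1 (95% exact interval 43.0 to 44.7%) and 46.5% in replicate 2 (45.6 to 47.3%). NCL-202 held 19.9% and 20.1%, and NCL-203 held 12.9% and 15.3%. The annotated start of NCL-203 leaves residues 17 to 710. NCL-202 encodes 734 amino acids, 24 more than the reference, owing to an additional exon of 72 bases at chr2:231457286-231457357 (minus strand). This exon is printed as the coding difference between the pair. It is not the largest difference, as NCL-202 lacks 1660 non-coding bases of exon 14 and 131 of exon 1 of NCL-201. Which of these parts set the split of counts was not tested.
NCL-202 exon 10: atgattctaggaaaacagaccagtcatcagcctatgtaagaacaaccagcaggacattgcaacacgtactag

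Retained-intron transcripts made up 22.3% of NCL in replicate 1 against 16.9% in replicate 2, the highest mean share of this type among the 10 genes at 19.6% ± 3.85 (SD, n = 2). Over all protein-coding genes the share was 6.71% ± 0.163. Per length, these transcripts made up 42.2% of NCL in replicate 1 and 37.4% in replicate 2, beside 9.93% ± 0.0777 over all protein-coding genes. NCL-210 held 13.4% and 9.78%, and NCL-207 held 7.95% and 5.34% (4.51% and 3.07% per length), so both were lower in replicate 2. Per length NCL-210, of 910 bases, had 33.2% in replicate 1 and led there, and NCL-201, of 3924 bases, had 25.2%. In replicate 2 NCL-201 led per length with 27% against 24.5%. No 50-base word of NCL-210 is absent from all other GENCODE v44 transcripts of the gene, which include models that were not listed, such as NCL-211.

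The leading transcript of nucleophosmin had nearly the same share in both libraries. NPM1-204 held 77.0% in replicate 1 (95% exact interval 76.6 to 77.4%) and 76.7% in replicate 2 (76.2 to 77.1%), although the normalised count of NPM1 was lower in replicate 2. It codes for the same 294 amino acids as the MANE Select NPM1-201, which held 1.17% and 1.09%, and both together made up 77.9% ± 0.272 (SD, n = 2). NPM1-202 held 15.0% (14.7 to 15.3%) and 12.5% (12.2 to 12.9%), and NPM1-203 held 4.77% (4.58 to 4.96%) and 6.23% (5.98 to 6.49%). These minor shares moved in opposite directions by more than their counting intervals, and the spread between libraries has no test at n = 2.

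The minor NPM1 transcripts differ in parts of the protein. NPM1-202 lacks the 87 bases of exon 9 of NPM1-204, at chr5:171400839-171400925 (plus strand), and encodes 265 amino acids. NPM1-203 ends before exon 11 of NPM1-204, at chr5:171407700-171407774, and shares 257 of its 259 amino acids with the start of the reference. It thus lacks the C-terminal region, which is known to carry a signal for nucleolar localisation. Both exons are printed since the proteins separate there. The proteins of 294, 265 and 259 amino acids stood at 78.1%, 15.0% and 4.77% of NPM1 in replicate 1 and at 77.8%, 12.5% and 6.23% in replicate 2.
NPM1-204 exon 9, absent from NPM1-202: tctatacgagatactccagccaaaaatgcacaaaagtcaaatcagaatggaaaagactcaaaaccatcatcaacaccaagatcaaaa
NPM1-204 exon 11, absent from NPM1-203: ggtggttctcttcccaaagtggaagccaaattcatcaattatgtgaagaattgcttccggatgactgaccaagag

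NPM1 has many processed copies in the genome, which makes its counts less certain. GENCODE v44 named 49 listed pseudogenes after NPM1, of which 31 were above 0 in at least 1 library. Their sum was 4220 normalised counts in replicate 1 against 2782 in replicate 2, or 8.46% and 8.40% of the NPM1 count. NPM1P27 on chromosome 5 held most of this, 3562 in replicate 1 against 2419 in replicate 2, and NPM1P7 on chromosome 12 followed with 302.8 and 134.7. How RSEM divided reads between NPM1 and these copies cannot be seen in the tables. For the other genes the pseudogene sums were smaller. They came to 3.33% and 2.42% for NHP2, and were below 0.4% for NOP56, NCL and NOLC1. No pseudogene named after FBL, NOP58, SNU13, NOP10 or GAR1 was listed.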

How the data were processed

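Total RNA was depleted of rRNA and made into TruSeq libraries. The submitters' processing notes name FastQC, STAR 2.7.0d, RSEM 1.3.3 and R 3.6.3; the strand setting of the counting is not given. After naming both of its data sets, the study states that sequencing reads were aligned to an Ensembl release of GRCh38, without saying for which. The deposited tables give the RSEM estimated count of each transcript, as made by the authors. A further deposited column holds a normalised signal (EB-Seq-Normalised), which equals the estimated count divided by a size factor of 0.945 for replicate 1 or 1.08 for replicate 2. Tables of METTL8 transcripts were not used.

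With versions removed, 202217 of 206696 transcript identifiers were found in GENCODE v44 (GRCh38), 173547 of them at the same version. Of the 96 transcripts of the 10 genes, 20 had another version, so models and lengths given for these are those of v44. GENCODE v44 holds 140 transcripts of these genes, and models that were not listed have no counts here. The genes, gene lists and pairs were chosen with earlier results of these data known. Named were all 10 genes with each transcript of a mean share of at least 5%, DKC1, and the highest and lowest 2 of each list; other transcripts were named after their values were seen.

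Levels between genes are counts divided by transcript length, scaled to 1000000 per library, with no effective length correction. Values are means ± SD of 2 libraries. A sign-flip test with 2 libraries cannot give a two-sided p below 0.5, so none is given. Shares have exact (Clopper-Pearson) 95% intervals of rounded estimated counts and a floor of 3 counts, for counting error only. Proteins were translated from GENCODE v44 transcripts, and unique words are those of 50 bases found in no other v44 transcript of the gene. Python 3.11.15, pandas 2.3.3, scipy 1.17.1 and Biopython 1.88 were used. Alternatives left out the division by length, took 200 bases off each length, used protein-coding transcripts only, set other totals and minimums, or left out a library. Leaving out NPM1 and adding partial models were chosen after seeing the data.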

Additional observations from a re-analysis of the deposited data

How the results depend on the processing

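The number of called pairs was 43 and ranged from 42 to 44 under the other scales. The number of genes with the same leader was 9 of 10 and ranged from 8 to 9. With protein-coding transcripts only it was 9 of 9, since NOP58 has only 1 such transcript and was left out. Of 36 alternatives for the pairs within each core, 32 kept direction and call. When protein-coding transcripts alone were counted, the log2 ratio of NOP56 to SNU13 became -1.96 and that of NOP56 to NOP58 became 0.13 with no call, as little of NOP56 is annotated as protein-coding. Without division by length, NOP10 to DKC1 became -1.80 and NHP2 to DKC1 became 0.11 with no call. The protein-coding share of 86.0% became 78.7% per length, 83.1% as the mean of the 10 shares and 76.4% without NPM1; single libraries gave 85.5% to 86.4%. The share coding for the reference protein, 53.1%, became 49.5% per length, 32.5% without NPM1 and 60.1% with partial models such as FBL-205; single libraries gave 51.4% to 54.9%. At 1.5-fold in place of 2-fold, 1 gene (NPM1) was apart between the libraries. Per length, 7 of the 10 leading shares moved by more than their SD. Counts of pairs, leaders and folds need both libraries and have no value with 1 left out. No paired analysis was possible because there was 1 group. GAR1 rested on 287 and 227 counts, and 5 of the 12 snoRNAs had none; the shares of GAR1-201 and GAR1-202 differed by more than their counting intervals, and the cause was not tested.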
